A study of Mus musculus with 6 samples.

Results

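The genes described here encode the nuclear part of the mitochondrial respiratory chain: the subunits of complexes I to V that are made from nuclear DNA. They were taken by symbol, as every gene whose name starts with Nduf, Uqcr, Cox4 to Cox8 or Atp5, or is Sdha, Sdhb, Sdhc or Sdhd, without the names that carry the pseudogene ending -ps. That gave 97 of the 55291 genes measured. Their transcripts were measured by poly(A) RNA sequencing in cultured macrophages that were differentiated from mouse bone marrow (BMDM). One group was left untreated (3 libraries) and the other was pretreated with apoptotic cells, abbreviated AC (3 libraries). The sources used here do not give the strain or age of the animals, nor which apoptotic cells were added, how many or for how long. They also do not say whether replicates are separate cultures, so the p-values speak for the spread among these 6 libraries alone, and that spread may be technical.

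The respiratory chain carries electrons from NADH and succinate to oxygen and uses the energy to pump protons across the inner mitochondrial membrane. Complex I oxidises NADH, complex II oxidises succinate within the tricarboxylic acid cycle, complex III passes electrons from ubiquinol to cytochrome c, complex IV reduces oxygen, and complex V, the ATP synthase, lets protons return to make ATP. Most subunits are nuclear genes whose proteins are imported, and a small number are encoded in the mitochondrial genome. In macrophages the balance between respiration and glycolysis is known to vary with activation state, and macrophages that engulf dying cells take up lipid and protein that mitochondria can oxidise.

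Nuclear respiratory genes are known for promoters that carry letters recognised by NRF-1, by ETS-family factors such as GABP, and by YY1. RefSeq sequences on GRCm38.p6, from 250 bases before to 50 bases after the start, were found for 76 of the 97 genes and searched on both strands. The NRF-1 core GCATGCGC was present for 12 of 76 (15.8%), against 3.05% of all 27025 genes with an entry. CCGGAAG, the ETS letters, was present for 19 (25%) against 9.93%, and AAGATGGCG, the YY1 letters, for 8 (10.5%) against 1.64%. Matches can share bases, since the ETS letters end in AAG, where the YY1 letters begin, and the NRF-1 core overlaps its own reverse strand. Of the 76, 32 held at least 1 motif (42.1%), against 13.6% of all genes. All genes with an entry include many with little or no transcript in these cells. Genes of a level like that of the chain were not compared. A match describes letters and was not tested as a binding site. For each complex 1 stretch before the start is shown. It is from the most abundant gene with a match there in a run of at least 60 bases outside annotated exons. More abundant genes whose matches lay elsewhere were passed over. Lower case is the plain sequence, 5′ to 3′ on the gene's strand, and capitals mark the matched letters (CTTCCGG is CCGGAAG read on the other strand).
Ndufb6: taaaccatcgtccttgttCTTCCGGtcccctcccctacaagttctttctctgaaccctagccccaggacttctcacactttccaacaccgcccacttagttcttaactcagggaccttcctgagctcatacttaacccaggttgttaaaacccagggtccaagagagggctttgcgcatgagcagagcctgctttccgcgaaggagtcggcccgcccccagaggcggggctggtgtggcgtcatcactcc
Sdhd: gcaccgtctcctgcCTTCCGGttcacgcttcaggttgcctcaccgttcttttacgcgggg
Uqcrh: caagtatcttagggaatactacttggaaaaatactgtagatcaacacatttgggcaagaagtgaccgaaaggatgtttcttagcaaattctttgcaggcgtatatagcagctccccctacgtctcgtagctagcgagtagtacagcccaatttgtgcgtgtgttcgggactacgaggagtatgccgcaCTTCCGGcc
Cox6a1: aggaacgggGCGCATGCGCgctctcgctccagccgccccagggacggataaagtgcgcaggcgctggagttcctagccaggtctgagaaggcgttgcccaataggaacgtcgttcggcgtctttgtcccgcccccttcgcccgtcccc
Atp5e: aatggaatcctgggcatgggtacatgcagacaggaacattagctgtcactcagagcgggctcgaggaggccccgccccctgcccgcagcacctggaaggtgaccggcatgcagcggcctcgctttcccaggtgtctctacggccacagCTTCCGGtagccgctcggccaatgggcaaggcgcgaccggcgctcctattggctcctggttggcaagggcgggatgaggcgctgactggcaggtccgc
These stretches lie at chr4:40279422-40279671 (Ndufb6, complex I), chr9:50603850-50603909 (Sdhd, complex II), chr4:116075072-116075268 (Uqcrh, complex III), chr5:115348982-115349129 (Cox6a1, complex IV) and chr2:174464106-174464351 (Atp5e, complex V). Sdhd, Uqcrh, Cox6a1, Ndufb6 and Atp5e are all on the minus strand. Within the stretches shown, Cox6a1 holds the NRF-1 letters, in a GCGCATGCGC run where the forward and reverse matches overlap. The other 4 stretches hold the ETS letters. Cox6a1 has an ETS match too, outside the stretch shown.

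The libraries held 19353409 to 32694682 reads on genes, recovered from the deposited values. Levels are given as TPM, a transcript's share of its library after correction for exon length, scaled to 1000000, and differences as AC minus untreated on the log2(TPM + 1) scale, which understates differences of low genes. The macrophage identity of the cultures was checked with 10 markers, all 10 of which were present, with a summed level of 29025 to 37536 TPM across the untreated and 31471 to 41504 TPM in AC libraries. Some libraries stood apart. Lyz2, the macrophage lysozyme gene, was at 83.7 TPM in untreated replicate 1 and at 9270.5 to 12451 TPM in the other 5. Gm23935, a predicted gene, was at 73936 TPM in AC replicate 3 and at 9648 to 13452 TPM elsewhere. Summed placental trophoblast markers (16 genes, Prl3d1 always at 0) were at 17.4, 36.7 and 0 TPM in untreated replicates 1, 2 and 3. Across the AC replicates 1, 2 and 3 they were at 33.8, 156 and 0.492 TPM. Replicates 1 and 2 of both groups thus carried these markers. In AC replicate 3 only Prl2c3 (0.42 TPM) and Gcm1 (0.070 TPM) were above 0. Libraries called without placental transcripts below are replicate 3 of both groups, where Tpbpa, Prl3b1 and Psg23 were at 0. Summed erythroid markers (6 genes) had the same split, at 1.65, 3.47 and 0.0652 TPM across the untreated and 6.66, 17.5 and 0.357 TPM across the AC replicates. In bulk RNA, fewer cells of a type and less RNA per cell cannot be told apart.

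No respiratory chain gene passed the test between the groups. Of the 97 genes, 88 reached 1 TPM in at least 3 libraries and were tested together with all other genes. By limma with Benjamini-Hochberg adjustment over 12603 genes, 0 of the 88 had an adjusted p under 0.05 (0% of all genes tested), and 0 had an unadjusted p under 0.05 (1.3% of all genes tested, 164 genes). The smallest unadjusted p among them was 0.174. The voom method of limma on recovered reads also called 0 genes, with 99 genes and 0 of 86 respiratory chain genes at an unadjusted p under 0.05. In 1 gene, Atp5g2, every AC library lay below every untreated one (3.48% of all genes tested), and in 0 genes did every AC library lie above (0.936% of all genes tested).

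The estimates were small and mostly below 0, as they were for all genes. Mean log2 levels were lower in AC libraries for 75 of the 88 genes (85.2%), against 70.6% of all genes tested, and the median log2 difference was -0.078 against -0.070. By the mean of TPM itself, 70 of the 88 were lower, against 65.5% of all genes. When libraries were scaled by the median of ratios instead, 48 of 87 were lower, against 52.6% of all genes, so the lean toward lower values depended on the scaling. The 95% interval of the difference lay within 1.5-fold in both directions for 55 of the 88 (62.5%, against 46.1% of all genes), and within 2-fold for 86. The exceptions to the wider bound were Cox6a2 and Cox7a1, both expressed at low levels. Differences beyond 2-fold in TPM + 1 were thus outside the interval for 86 of these genes. For low genes among the 86 this does not bound the fold of the transcript itself. Ndufb4c, for example, was at 0.376 to 1.20 TPM over the 6 libraries, with an interval of -0.91 to 0.39. Each interval gives the range of differences compatible with the 3 libraries per group.

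**Figure D1:**
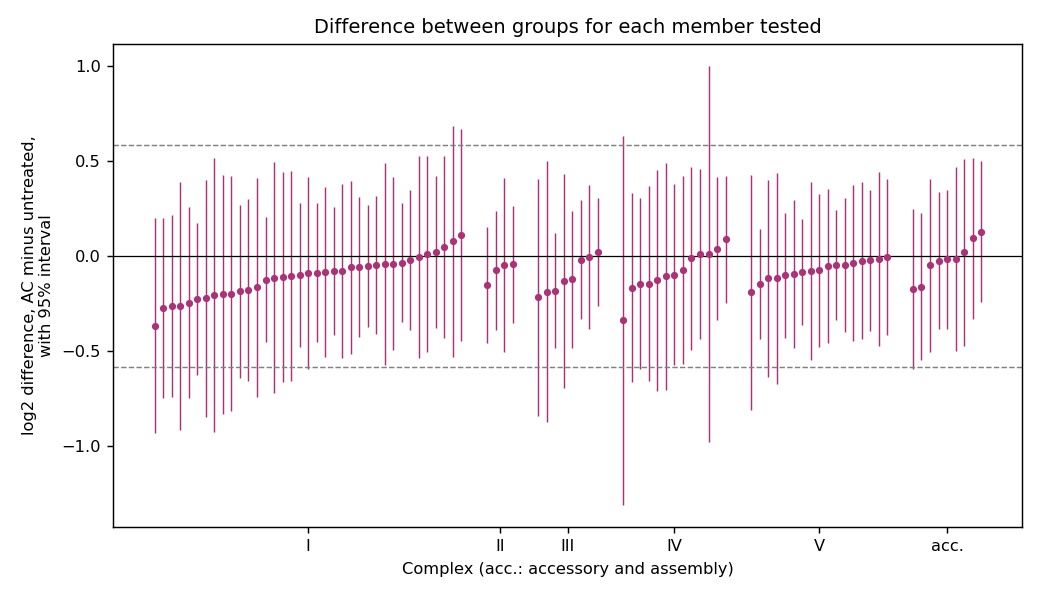
Difference between groups for each of the 88 genes tested, as points on the log2(TPM + 1) scale (AC minus untreated) with 95% intervals from limma, sorted within complexes I to V and the accessory and assembly class (acc.). Dashed lines mark 1.5-fold. Every interval includes 0, and the widest belong to Cox6a2 and Cox7a1 in complex IV.

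Summed by complex, the AC libraries were not shifted together but were spread around the untreated ones. Together the 88 genes assigned to the 5 complexes, tested or not, amounted to 11731, 12155 and 12074 TPM in untreated replicates 1, 2 and 3, and to 14332, 10039.8 and 9834 TPM across the AC replicates 1, 2 and 3. The untreated libraries were nearly alike, with the highest 1.04 times the lowest, whereas AC replicate 1 was above and AC replicates 2 and 3 were below all of them, a 1.46-fold range. Group means were 11986 ± 225 and 11402 ± 2539 TPM (SD, n = 3 each), a ratio of 0.951. The ratio was 0.829 without AC replicate 1 and 1.02 without AC replicate 3, so its direction rested on single libraries. By complex, the log2 ratio of the group means lay between -0.089 (complex I) and -0.057 (complex V). With median-of-ratios scaling all 5 ratios turned positive, between 0.01 and 0.04. Counts of lower and higher means below follow the sign of the log2(TPM + 1) difference. These genes made up 0.983% to 1.43% of the transcripts of a library.

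**Figure D2:**
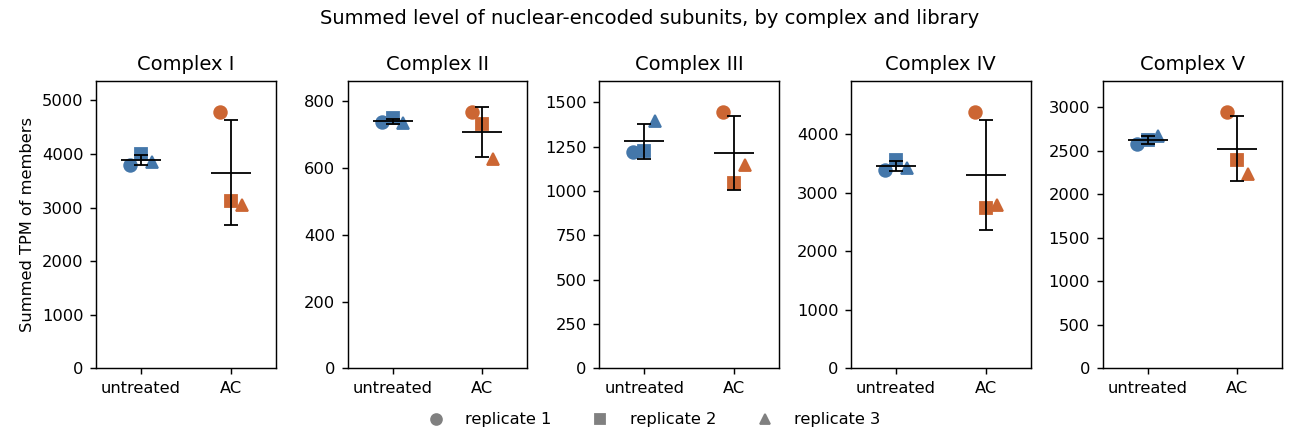
Summed TPM of the nuclear-encoded genes of complexes I to V (1 panel each, axis from 0), with 1 symbol per library and lines for the mean and SD of 3 libraries. AC replicate 1 (circle) is the highest library in all 5 panels, and AC replicates 2 and 3 are the lowest, by little for AC replicate 2 in complex II (731 TPM).

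Complex I is the largest of the chain, with 7 nuclear-encoded core subunits that carry the flavin and iron-sulfur clusters and a shell of accessory subunits around them. Its genes summed to 3802, 3994 and 3857 TPM in untreated replicates and to 4787, 3132 and 3041 TPM across the AC replicates 1, 2 and 3. AC replicate 1 stood above and the other two below the untreated range. Of 39 listed genes 37 were tested, among them Ndufb4c, annotated as a processed pseudogene. Of the 37, 32 had a lower and 5 a higher mean log2 level in AC libraries, with a median log2 difference of -0.088. The 3 most abundant were accessory subunits. Ndufa2 was at 433, 468 and 395 TPM across the untreated and 634, 308 and 323 TPM across the AC replicates, a log2 difference of -0.11 ± 0.27 (SE). Ndufc2, in the membrane arm, was at 237, 257 and 269.96 TPM and 293, 225 and 169.7 TPM (-0.18 ± 0.20). Ndufa8 was at 258, 259 and 255 TPM and 307, 162 and 204 TPM (-0.25 ± 0.22). In each of these genes the groups overlapped, because AC replicate 1 was the highest of the 6 libraries and the other AC libraries were below the untreated ones.

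The complex I genes with the smallest unadjusted p were also accessory subunits. Ndufa5 (chr6:24518666-24528013, GRCm38) was at 81.7, 91.96 and 77.2 TPM across the untreated and 96.3, 59.2 and 46.8 TPM across the AC replicates. Its log2 difference was -0.37 ± 0.25 (limma, unadjusted p = 0.174, adjusted p = 1.0), and -0.65 without AC replicate 1 but -0.14 without AC replicate 3. Ndufb6 (chr4:40270591-40279421) was at 109.96, 105 and 154 TPM and 127, 84.9 and 92.7 TPM, where untreated replicate 3 stood above the rest. Its log2 difference was -0.27 ± 0.21, and 39% of its exon bases are shared with Smim27, so its level is uncertain. Ndufa6 (chr15:82350140-82354322) was at 91.8, 90.8 and 94.9 TPM and 101, 65.95 and 73.7 TPM, a log2 difference of -0.23 ± 0.17, with the same order of AC libraries around a narrow untreated range.

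Core and accessory subunits of complex I did not spread equally over the libraries. Relative to each gene's mean over the 6 libraries, the median of the 7 core genes was 0.089, 0.13 and -0.068 log2 units across the untreated and 0.22, -0.055 and -0.17 in AC replicates. For the 30 other genes tested, accessory subunits and the pseudogene Ndufb4c, it was -0.0097, 0.10 and 0.097 and 0.34, -0.26 and -0.26. That is a wider span with the same order of AC libraries. Over the whole chain the spread also went with exon length. The range of AC medians was 0.76 log2 units for genes under 1000 exon bases. It was 0.53 at 1000 to 2000 bases, 0.39 at 2000 to 4000 and 0.16 from 4000. Role and exon length were not told apart. Ndufs1, a core subunit of the electron input module that holds several iron-sulfur clusters, had another order, at 20.9, 17.4 and 18.7 TPM across the untreated and 13.6, 20.6 and 20.2 TPM across the AC replicates, with AC replicate 1 the lowest of all. Its merged exon length of 8086 bases is among the longest here. Ndufb2, an accessory subunit and the gene with the largest positive estimate in complex I (0.11 ± 0.24), was at 2.25, 3.03 and 2.25 TPM and 3.41, 3.07 and 1.99 TPM. Its merged exon length is 5628 bases and its exons overlap those of Braf, Gm16272 and Gm42420, so its TPM is uncertain. Ndufab1, the mitochondrial acyl carrier protein, was likewise low on this scale, at 14, 14.6 and 15.4 TPM and 13.6, 13.5 and 14.4 TPM over 6883 exon bases, and among the least spread.

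Complex II, succinate dehydrogenase, has 4 subunits, all nuclear. Its sums had the narrowest AC range (1.23-fold), at 737, 748 and 735 TPM across the untreated and 768, 731 and 626 TPM across the AC replicates, with AC replicate 3 below the other libraries. Sdha, the flavoprotein that oxidises succinate, was at 181, 159 and 169 TPM across the untreated and 139, 151 and 168 TPM across the AC replicates (-0.15 ± 0.13). Sdha was lowest in AC replicate 1, where most of the chain was highest. Sdhb, the iron-sulfur subunit, was at 182, 199 and 172 TPM and 220.2, 196 and 131 TPM (-0.047 ± 0.20). The membrane anchor Sdhc was at 126, 132 and 133 TPM and 136, 129.7 and 108 TPM (-0.074 ± 0.14). The other anchor, Sdhd, was at 247, 259 and 261 TPM and 273, 255 and 218 TPM (-0.044 ± 0.13). Sdhb, Sdhc and Sdhd shared an order, with AC replicate 1 highest and AC replicate 3 lowest, and for all 4 genes the 95% interval lay within 1.5-fold.

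Complex III genes summed to 1219.8, 1228 and 1393 TPM across the untreated and 1447, 1049 and 1146 TPM across the AC replicates. All 8 were tested, 7 with a lower mean log2 level in AC libraries, with a median log2 difference of -0.13. Uqcr10, a small subunit, was at 215, 229 and 259 TPM and 276, 193 and 238 TPM (-0.0036 ± 0.16), almost level between groups. Uqcrh, the hinge protein near cytochrome c1, was at 225, 246 and 254 TPM and 262, 224 and 185 TPM (-0.12 ± 0.16). Uqcrb, a small subunit at the ubiquinone site, was at 131, 139.8 and 240.4 TPM and 167, 122 and 164 TPM (-0.13 ± 0.25), where untreated replicate 3 alone was high. The core protein gene Uqcrc2 (chr7:120635176-120659524) had the smallest unadjusted p in this complex, at 103, 89.7 and 96.6 TPM across the untreated and 80.4, 92.6 and 82.1 TPM across the AC replicates (-0.18 ± 0.13, limma unadjusted p = 0.206, adjusted p = 1.0). AC replicate 2 overlapped the untreated range, and 19.7% of its exon bases are shared with Pdzd9. Over the libraries, the 3 core genes had medians of 0.10, 0.029 and -0.14 log2 units in AC replicates. For the 5 small subunits they were 0.24, -0.35 and -0.043, again a wider spread. Merged exons of the small subunits were 584 to 1831 bases long, against 1363 to 4135 for the core genes. Role and exon length were not told apart here either.

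Complex IV, cytochrome c oxidase, had the widest AC range of the 5 complexes. Its genes summed to 3395, 3557 and 3422 TPM across the untreated and 4384, 2741 and 2787 TPM across the AC replicates, with AC replicate 1 1.6 times the lowest AC library. Of 20 listed genes 13 were tested, 9 with lower and 4 with higher mean log2 levels in AC libraries (median log2 difference -0.098, or -0.32 without AC replicate 1 and 0.072 without AC replicate 3). Cox6a1, the most abundant gene of the whole chain, was at 706, 731 and 545 TPM across the untreated and 930.3, 499 and 486 TPM across the AC replicates (-0.11 ± 0.26). Cox8a was at 562, 581 and 547 TPM and 729, 380 and 478 TPM (-0.14 ± 0.22). Cox6b1, which binds near cytochrome c, was at 538, 578 and 545 TPM and 719, 470.4 and 409 TPM (-0.098 ± 0.21). All 3 were highest in AC replicate 1, and the other AC libraries lay below the untreated range. Cox5a, a nuclear subunit with no isoform pair, had the largest positive estimate of the complex, at 89.8, 97.02 and 104 TPM and 119.9, 96.1 and 94.6 TPM (0.088 ± 0.15), with only AC replicate 1 above the untreated values.

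Several complex IV subunits exist as a broadly used gene and a gene known from heart, muscle, lung or testis. The broadly used genes carried nearly all of the transcript. Cox4i1 was at 565 ± 52.8 TPM across the untreated and 521 ± 140.2 TPM in AC libraries (SD, n = 3 each), while Cox4i2, the lung form known for its response to oxygen, was at 0, 0.469 and 0 TPM and 0.1399, 0 and 0.182 TPM, from 0 to 4 reads per library. Cox7a2 was at 255 ± 6.63 and 249.9 ± 76.8 TPM, and Cox7b was at 136 ± 35.2 and 133 ± 23.7 TPM. Ndufa4, first assigned to complex I and now counted with complex IV, was at 132 ± 24.9 and 134 ± 11.5 TPM, whereas its relative Ndufa4l2, a hypoxia-induced gene, had 1 read in 1 untreated library. Cox6b2, the testis form, stayed between 0.126 and 1.25 TPM. Cox7b2, Cox8b and Cox8c had 0 reads in all 6 libraries, which at this depth allows up to 0.867, 1.305 and 1.03 TPM per library (3 reads, counting error only).

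**Figure D3:**
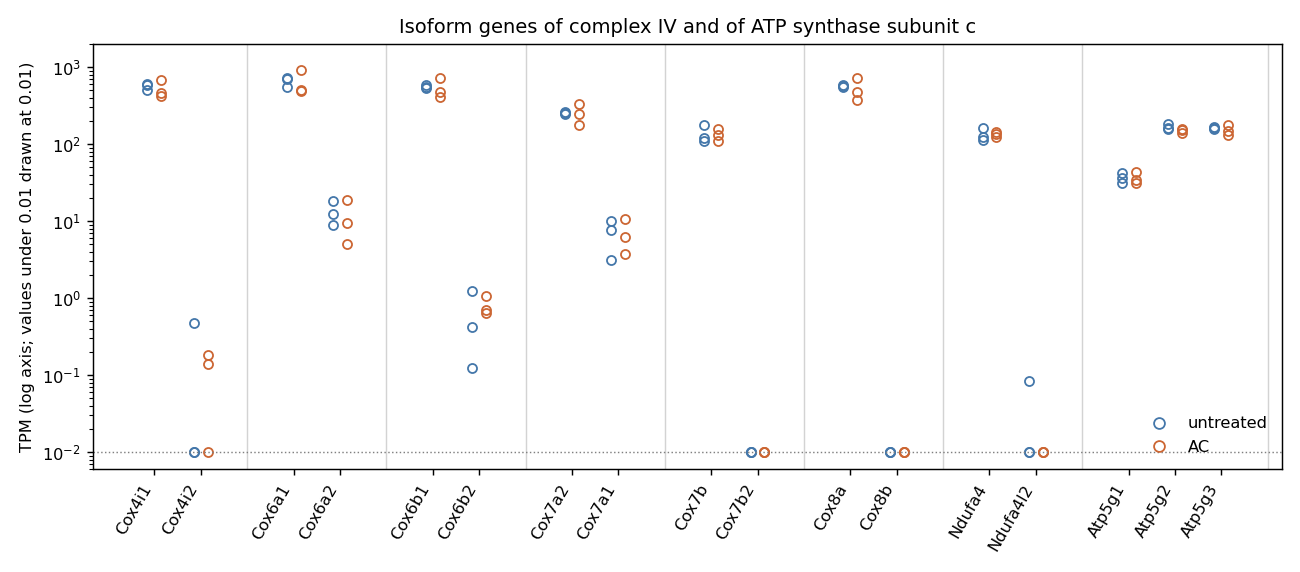
TPM (log axis) of broadly used and tissue-restricted isoform genes of complex IV and of the 3 genes for ATP synthase subunit c, with 1 circle per library (blue untreated, orange AC) and values under 0.01 drawn at 0.01. Cox6a2 and Cox7a1 are the tissue-restricted genes that reach levels above 3 TPM in every library.

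The muscle and heart forms Cox6a2 and Cox7a1 were the exceptions, present in every library and with the widest intervals of the chain. Cox6a2 (chr7:128205435-128206387) was at 8.999, 18.5 and 12.2 TPM across the untreated and 18.97, 9.48 and 5.07 TPM across the AC replicates, from 24 to 136 reads, with a log2 difference of -0.34 ± 0.42 (95% interval -1.31 to 0.63). Cox7a1 (chr7:30184144-30186078) was at 3.12, 10.2 and 7.61 TPM and 10.7, 6.297 and 3.76 TPM, from 12 to 59 reads (0.013 ± 0.43, -0.98 to 1.002). Both genes were highest in AC replicate 1 and untreated replicate 2, intermediate in untreated replicate 3 and AC replicate 2, and lowest in AC replicate 3 and untreated replicate 1. Cox6a2 shares 10.3% of its exon bases with Itgad, which was itself at 0.586, 0.778 and 0.764 TPM and 0.513, 0.909 and 1.498 TPM. Markers of striated muscle were below 1 TPM in all libraries, 6 of 6, with Actn2, Myh7 and Mb at 0.

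Complex V, the ATP synthase, joins a catalytic F1 head to a membrane part by a central and a peripheral stalk. Its 17 genes summed to 2577, 2627 and 2667 TPM across the untreated and 2945, 2387 and 2235 TPM across the AC replicates, with a narrower AC range (1.32-fold) than complex I or IV. All 17 had a lower mean log2 level in AC libraries, although the mean TPM of Atp5d (187 and 189) and Atp5g1 (36.3 in both groups) was not lower, with a median log2 difference of -0.075 (0.028 without AC replicate 3). The 3 most abundant were genes of the F1 head. Atp5a1, the alpha subunit, was at 423, 378 and 384 TPM and 382, 407 and 357 TPM (-0.047 ± 0.13). Atp5b, the catalytic beta subunit, was at 351, 334 and 343 TPM and 347, 316 and 308 TPM (-0.084 ± 0.12). Atp5c1, the gamma subunit of the rotating stalk, was at 237, 246 and 242 TPM and 267, 251 and 192 TPM (-0.045 ± 0.15). Across AC replicates 1, 2 and 3 the medians were 0.16, -0.074 and -0.15 log2 units for the 5 F1 genes, 0.27, -0.066 and -0.28 for the 4 peripheral stalk genes and 0.30, -0.19 and -0.12 for the 8 membrane genes.

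Subunit c, which forms the proton-driven ring, is encoded by 3 genes whose mature protein is the same. Atp5g2 (chr15:102662864-102672352) was the 1 gene of the chain whose groups did not overlap, at 156, 163 and 180.2 TPM across the untreated and 155, 141 and 154 TPM across the AC replicates. The gap between the lowest untreated and the highest AC value was under 1 TPM, and the test did not call the difference (-0.15 ± 0.13, limma unadjusted p = 0.283, adjusted p = 1.0). Atp5g3 was at 158, 161 and 169 TPM and 175, 149.6 and 132 TPM (-0.10 ± 0.14). Atp5g1, the least abundant of the 3, was at 30.98, 36.3 and 41.7 TPM and 43.5, 31.6 and 33.9 TPM (-0.0029 ± 0.18). Atp5g3 and Atp5g1 were each highest in AC replicate 1, so the 3 genes did not share an order of libraries.

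Accessory and assembly genes were the remaining 9, namely Ndufaf1 to Ndufaf8, which help to build complex I, and Cox7a2l, a factor that joins complexes III and IV. Their median log2 difference was -0.016, with 6 lower and 3 higher. Ndufaf6 had the largest positive estimate of all members, at 11.4, 13.5 and 12.4 TPM across the untreated and 13.8, 14.9 and 12.3 TPM across the AC replicates (0.13 ± 0.16, limma unadjusted p = 0.448, adjusted p = 1.0). Ndufaf4 was at 10.2, 11.1 and 10.6 TPM and 11.02, 14.1 and 9.54 TPM (0.095 ± 0.18), with AC replicate 2 alone above the rest. Cox7a2l was far more abundant than the assembly factors, at 561, 573 and 554 TPM and 599, 548 and 378 TPM (-0.17 ± 0.18), and only AC replicate 3 left the untreated range by much. Of these 9 genes, 4 were highest in AC replicate 2.

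The wider spread of AC libraries was shared by most of the chain. The SD over 3 replicates was larger in AC than in untreated libraries for 79 of 88 genes (89.8%), against 73.3% of all genes, and its median was 0.12 and 0.32 log2 units (0.16 and 0.29 over all genes). AC replicate 1 held the highest value of 61 of the 88 genes (69.3%, against 11.6% of all genes). The lowest value fell in AC replicate 3 for 46 (52.3%, against 18.7% of all genes) and in AC replicate 2 for 34 (38.6%, against 11.6%). Both features, highest in AC replicate 1 and lowest in AC replicate 2 or 3, held for 58 genes, against 8.66% of all genes. Another 15 genes (17.05%, against 11.7% of all genes) were highest in untreated replicate 3, among them Uqcrb, Ndufb3 (102, 115 and 176 TPM across the untreated and 135, 75.8 and 126 TPM across the AC replicates) and Cox7c (194, 209 and 303 and 229.6, 161 and 234 TPM). Their transcripts had a median GC content of 47.2%, against 53.5% for the 61. Cytosolic ribosomal protein genes were likewise mostly highest in AC replicate 1 (74.4%) and lowest in AC replicate 3 (72%).

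**Figure D4:**
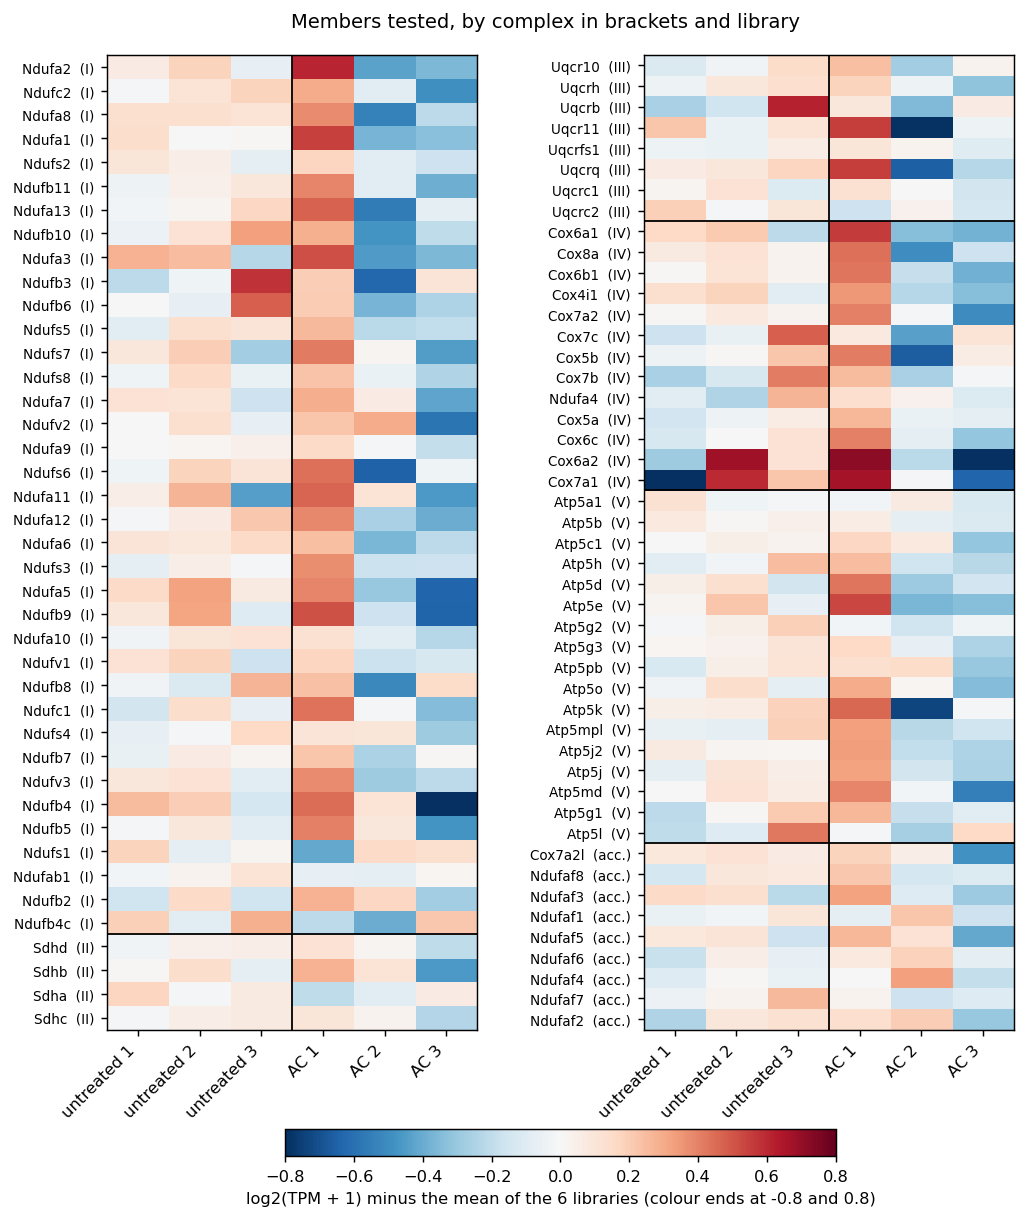
Level of each of the 88 genes tested in each library, as log2(TPM + 1) minus the gene's mean over the 6 libraries (red above, blue below, colour ends at -0.8 and 0.8), by complex and mean level. The column of AC replicate 1 is mostly red and those of AC replicates 2 and 3 mostly blue, with Sdha, Ndufs1 and Uqcrc2 among the genes that are lower in AC replicate 1.

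The median position of the chain in each library, relative to each gene's mean, was -0.011, 0.066 and 0.067 log2 units in untreated replicates 1, 2 and 3 and 0.26, -0.12 and -0.22 in AC replicates. The median gene of the same libraries stood at 0.097, 0.020 and -0.0033 and -0.18, 0.043 and 0.052, so the chain was above it in AC replicate 1 and below it in AC replicates 2 and 3. Cytosolic ribosomal protein genes, which also have short and abundant transcripts, stood at 0.033, 0.11 and 0.049 and 0.26, -0.11 and -0.33 over 82 genes, with the same order of AC libraries. The merged exon length of the chain had a median of 1631 bases against 3851 over all genes tested, and 54 of 86 genes with a length were under 2000 bases, against 23.9% of all genes. Over all genes the position in AC replicate 1 was lower for longer exons (Spearman -0.47 across 12405 genes, which share a library and are not independent), and in AC replicate 3 it was higher (0.38). With the trend over exon length removed in each library, the medians of the chain were -0.085, 0.0018 and 0.084 and 0.25, -0.14 and -0.15, and with length and GC trends removed -0.095, -0.0012 and 0.081 and 0.23, -0.091 and -0.15. Removing a trend also takes out the level of all genes in a library. Relative to the median gene of each library, the medians of the chain before removal were -0.11, 0.046 and 0.070 and 0.44, -0.17 and -0.27. After both steps AC replicate 1 was still the highest library and AC replicate 3 the lowest, over a narrower span. In that adjusted form the median log2 difference between groups was -0.01 after the length trend and -0.0023 after both. These steps also take out the difference of all genes, which was -0.070 at the median before them. Median-of-ratios scaling, which uses no exon length, gave -0.010 for the chain. The part of exon length and GC in this was not tested.

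**Figure D5:**
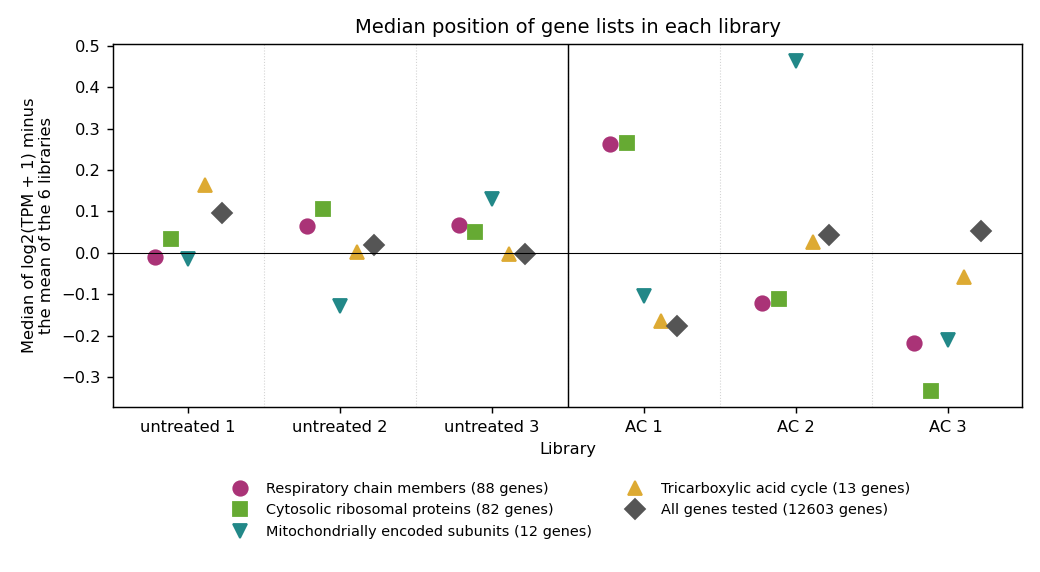
Median of log2(TPM + 1) minus the gene's mean over the 6 libraries, for 5 gene lists in each library (vertical axis in log2 units). Respiratory chain and ribosomal protein genes are high in AC replicate 1 and low in AC replicates 2 and 3, and the mitochondrially encoded subunits are highest in AC replicate 2.

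The estimates moved with single libraries. Without AC replicate 1, 84 of the 88 genes had a lower mean log2 level in AC libraries. The median log2 difference was then -0.21, against 0.0094 over all genes and -0.29 over cytosolic ribosomal protein genes. By limma 17 of the 88 genes, all lower, had an unadjusted p under 0.05, against 6.32% of all genes tested. After adjustment 0 passed (limma, smallest adjusted p = 0.775). Without AC replicate 3, the median was 0.027, against -0.11 over all genes and 0.016 over ribosomal protein genes, and 36 chain genes were lower. Among the 4 libraries that carried placental transcripts the median was 0.025, against -0.13 for all genes. In the 2 libraries that did not, it was -0.28, against 0.054, with 1 library per group and no test. With all 6 libraries scaled without Gm23935, the median of the chain was -0.047, against -0.078 with it. The summed log2 ratios then lay between -0.061 (complex I) and -0.027 (complex V). The part of the placental and erythroid transcripts and of Lyz2 in the values above was not tested, nor was that of Gm23935 when libraries were left out.

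Genes that work with the chain gave no call either. The 13 mitochondrially encoded subunits, 12 of them tested, had a median log2 difference of 0.032, with 7 higher and 5 lower, and stood highest in AC replicate 2 (medians -0.014, -0.13 and 0.13 across the untreated and -0.10, 0.46 and -0.21 in AC replicates). Their order of AC libraries was another than that of the nuclear genes of the same complexes. The largest estimates were those of mt-Nd3 (14.8, 19.4 and 80.5 TPM across the untreated and 32.3, 50.9 and 38.4 TPM across the AC replicates, 0.46 ± 0.54) and, on the lower side, mt-Nd5 (849, 685 and 944 and 367, 943 and 980.02 TPM, -0.23 ± 0.36). Some mitochondrial genes have near-identical nuclear copies, so their levels are uncertain. Cytochrome c, the carrier between complexes III and IV, was encoded by Cycs at 55.1, 56.5 and 70.4 TPM and 63.3, 52.1 and 48.5 TPM (-0.15 ± 0.16), and cytochrome c1 of complex III by Cyc1 at 108, 113 and 91.7 TPM and 129, 94.8 and 80.3 TPM (-0.057 ± 0.19).

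Of 43 assembly factors outside the symbol rule, 39 were tested, and 0 passed the test. Mean log2 levels were lower for 30 (76.9%, against 70.6% of all genes tested) and higher for 9. Cox20, a chaperone for the complex IV subunit COX2, had the smallest unadjusted p, at 6.62, 5.44 and 7.09 TPM across the untreated and 3.996, 1.66 and 3.91 TPM across the AC replicates. Its log2 difference was -0.87 ± 0.28 (limma, unadjusted p = 0.0149, adjusted p = 1.0), between -1.02 and -0.57 when single libraries were left out. Cox15, an enzyme of haem A synthesis, was at 28.2, 23.6 and 28.96 TPM and 18.96, 23.5 and 22.5 TPM (-0.30 ± 0.16). Cox20 and Cox15 were the 2 of these 39 genes in which every AC library lay below every untreated one (3.48% of all genes tested). The 13 tricarboxylic acid cycle genes were all tested and all had lower mean log2 levels in AC libraries, against 70.6% of all genes tested. Their differences lay between -0.16 and -0.018, with a median of -0.099 against -0.070 for all genes. Cs, citrate synthase, was at 80.2, 72.99 and 68.4 and 62.96, 65.2 and 69.8 TPM (-0.16 ± 0.13). Among 12 regulators of respiratory genes, 10 were tested and 0 passed. Nrf1, which encodes the factor behind the NRF-1 letters, was at 8.16, 7.26 and 5.97 and 6.43, 6.01 and 6.98 TPM (-0.11 ± 0.19), and Tfb1m, a mitochondrial ribosomal RNA methyltransferase, at 3.62, 3.89 and 3.601 and 3.24, 3.81 and 2.83 TPM (-0.14 ± 0.20). Ppargc1a, the coactivator PGC-1alpha, stayed at or below 0.0889 TPM.

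Of the 97 genes, 9 did not reach the level needed for a test: Cox4i2, Cox6b2, Cox6c2, Cox7b2, Cox8b, Cox8c, Ndufa4l2, Ndufa11b and Ndufs6b. Ndufs6b, Ndufb4c, Ndufa11b and Cox6c2 are annotated as processed pseudogenes although their symbols lack the ending, and Ndufb4c passed the filter with 1 to 3 reads per library. The rule left out 14 symbols with the ending -ps, of which Ndufb1-ps was the most abundant, at 46.8, 45.8 and 69.5 TPM across the untreated and 45.3, 37.5 and 55.9 TPM across the AC replicates. How reads that map to several copies were counted is not stated in the sources used here, so genes with close copies are uncertain. In all, 12 genes share more than 10% of their exon bases with other annotated genes, most of all Ndufaf2 (65.6%, with B230220B15Rik), Atp5o (43.8%) and Ndufb6, and without a stated strand setting reads of such pairs cannot be told apart. Of the T cell markers, 9 of 10 were below 1 TPM in every library, and Cd3d and Cd8b1 were at 0. The exception was Cd4, at 9.48 to 16.8 TPM over the 6 libraries.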

How the data were processed

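Per the labels' protocols, poly(A) RNA was sequenced in paired-end Illumina runs (6 libraries). STAR 2.7.10a, featureCounts 2.0.3, Subread and the mm10 build are named in the submitters' processing notes, without their roles. Annotation release, strand setting and the handling of multi-mapping reads are not stated in the sources used here. The authors deposited 1 table of signal values per gene and library, named as TPM, whose columns sum to 54732 to 92831 and not to 1000000. Multiplied by merged exon lengths of the mouse GENCODE release M21 and divided by 8.57, the deposited signal gave whole reads (tolerance 0.02) in all libraries for 23508 of 23870 genes (98.5%). Recovered depth was 22614771, 32694682 and 19353409 reads in the untreated replicates, and 25319621, 21030372 and 21378941 reads in the AC ones, in order of number. Chi-square tests on these reads found every pair of replicates to differ by more than sampling noise.

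Each column was rescaled to 1000000, since the values were not TPM as first assumed. The test was limma-trend (limma 3.58.1 in R 4.3.3), 2-sided, on log2(TPM + 1) for genes that reached 1 TPM in 3 or more libraries, with a threshold of 0.05 after Benjamini-Hochberg adjustment. The script was tested on simulated data. Members, gene lists and tests were chosen with earlier results of these data known. Complexes were assigned by symbol. The rule for named genes took the 3 most abundant members of complexes I, III, IV and V, all of complex II, the 4 smallest unadjusted p in each direction, 8 tissue-restricted isoforms with 7 partners, the 3 subunit c genes and at most 2 genes of each other list; a gene it named is not reported here. Ndufs1, Ndufab1, Ndufb3, Cox7c, Cox7a2l and genes named only as counts, overlaps or exclusions fall outside it and were chosen after their values were seen. Rps6 and Rpl7a, the ribosomal protein genes it named, were at log2 differences of -0.21 and -0.23. Marker lists of other cell types were below 1 TPM in every library for 4 of 5 B cell, 6 of 6 fibroblast, 2 of 9 neutrophil and 2 of 6 erythroid genes. The neutrophil genes S100a8 and S100a9 were at 5.18 to 13.6 TPM and 7.86 to 27.7 TPM. Tables and figures were made with numpy 2.4.6, matplotlib 3.10.9, scipy 1.17.1 and pandas 2.3.3 under Python 3.11.15. Alternatives were a smaller pseudocount, other filters and scalings, no variance trend, a replicate block, and leaving out each library. Those chosen after seeing the data were scaling without Gm23935, libraries with or without placental transcripts, removal of length and GC trends, and voom on recovered reads.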

Additional observations from a re-analysis of the deposited data

How the results depend on the processing

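Precision was limited by 3 libraries per group, with a median SE of 0.20 log2 units over the chain. The count of respiratory chain genes called was 0 under every setting run. Over all genes it was 2 with the values as deposited and 1 without the variance trend, and 0 under the other settings. The median log2 difference of the chain lay between -0.21 and 0.027 when single libraries were left out. The corresponding ranges of the summed log2 ratios were -0.33 to 0.028 for complex I, -0.13 to 0.019 for complex II, -0.22 to 0.018 for complex III, -0.32 to 0.052 for complex IV and -0.18 to 0.023 for complex V. In the 2 libraries without placental transcripts the median was -0.28, with -0.34 for complex I, -0.23 for complex II, -0.28 for complex III, -0.30 for complex IV and -0.25 for complex V. The cause of these shifts was not tested.

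Single genes named by the rule turned sign as follows, none of them past the threshold. With median-of-ratios scaling the log2 differences were Uqcr10 0.065, Atp5a1 0.022, Atp5c1 0.024, Sdhb 0.022, Sdhd 0.025, Cox7b 0.057, Atp5g1 0.065 and Cyc1 0.011. Without the 10 most abundant genes they were Uqcr10 0.040, Sdhd 0.00035, Cox7b 0.032 and Atp5g1 0.040. The values as deposited gave Ndufa4 -0.025, and voom gave Uqcr10 0.041, Cox7b 0.035 and Atp5g1 0.041. The 4 libraries with placental transcripts gave Ndufc2 0.056, Uqcr10 0.055, Uqcrh 0.045, Uqcrb 0.078, Cox6b1 0.060, Atp5c1 0.10, Sdhb 0.12, Sdhc 0.041, Sdhd 0.062, Cox6a2 0.052, Cox7a2 0.15, Cox7b 0.19, Atp5g1 0.14, Atp5g3 0.023, Cycs 0.041 and Cyc1 0.0083. Leaving out single libraries turned 24 genes, over these ranges: Ndufa2 (-0.45 to 0.071), Ndufc2 (-0.38 to 0.014), Uqcr10 (-0.13 to 0.13), Uqcrh (-0.24 to 0.0081), Uqcrb (-0.29 to 0.14), Cox6a1 (-0.41 to 0.056), Cox8a (-0.40 to 0.067), Cox6b1 (-0.34 to 0.072), Atp5a1 (-0.094 to 0.0022), Atp5c1 (-0.14 to 0.098), Sdhb (-0.20 to 0.17), Sdhc (-0.14 to 0.025), Sdhd (-0.11 to 0.047), Cox5a (-0.022 to 0.15), Ndufaf4 (-0.046 to 0.21), Ndufb2 (-0.0014 to 0.28), Cox6a2 (-0.78 to 0.079), Cox7a1 (-0.40 to 0.33), Cox7a2 (-0.29 to 0.16), Cox7b (-0.14 to 0.19), Ndufa4 (-0.071 to 0.19), Atp5g1 (-0.14 to 0.10), Cyc1 (-0.24 to 0.096) and mt-Nd5 (-0.48 to 0.23). Of the genes chosen after their values were seen, Ndufs1 (-0.18 to 0.10), Ndufb3 (-0.38 to 0.037), Cox7c (-0.29 to 0.031) and Cox7a2l (-0.31 to 0.027) also turned.

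With the replicate number as a block, 0 genes and 0 respiratory chain genes were called, and the median was -0.078. The labels do not say what the numbers mark. Over all genes tested, same-numbered libraries had correlations of deviations from the group means of -0.06, 0.0098 and 0.17. The numbers were thus not taken to pair the samples, although replicate 3 of both groups lacked most or all placental transcripts. By the same measure, 2 of 6 libraries correlated best with their own number. Under the other pseudocounts and filters, the block and the model without a variance trend, no gene named by the rule turned sign.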
